A study of Mus musculus with 6 samples.

Results

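The lymphoid priming genes described here are 10 genes that are switched on, or kept poised, before a blood progenitor commits to the B or T lineage. They are the transcription factors Satb1, Ikzf1 and Sox4, the receptors Notch1 and Il7r, the recombination genes Rag1 and Dntt, and the antigen receptor genes Vpreb1, Cd79b and Ighm. They were chosen by symbol, and all 10 were found among the 34573 genes of the count table. Of these, 7 had enough reads to be tested, while Il7r, Rag1 and Dntt were too low. RNA sequencing was performed on hematopoietic stem cells (HSCs) from young adult Rpl22+/+ mice and from Rpl22-/- mice, with 3 libraries of each genotype (KO and WT in the plots). Rpl22 encodes a protein of the large ribosomal subunit. It was lost from the germline, so every cell of the Rpl22-/- mice lacked it, and the controls were wild-type littermates on the same C57BL/6 background. No agent was given. HSCs were sorted as lineage-negative cells that were Kit+, Sca-1+, CD48- and CD150+. The labels do not say whether the libraries of a genotype came from separate animals, so the p-values measure only the spread between these libraries.

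HSCs sit above all blood lineages. RNA of several lymphoid priming genes, such as Ikzf1, Sox4, Notch1, Cd79b and Satb1, was already present in the sorted HSC libraries. Il7r, Rag1 and Dntt were too low to be tested, and the levels are given below. In the classical order, Ikzf1 and the E proteins open lymphoid loci, Flt3 and then Il7r carry the cytokine signals, Rag1, Rag2 and Dntt cut and extend antigen receptor genes, and Vpreb1 with Igll1 forms the surrogate light chain that pairs with the Ighm heavy chain and signals through Cd79a and Cd79b. Notch1 directs progenitors that reach the thymus into the T lineage. The comparison asked whether the RNA of these genes differed between Rpl22-/- and Rpl22+/+ HSCs.

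Each library held between 9321123 and 13385850 reads on genes. Levels are given as CPM, counts per 1000000 reads, scaled by edgeR's TMM factors. Before that scaling, 3 reads in a library correspond to 0.224 to 0.322 CPM. Rpl22 itself stood at 35.0, 43.9 and 41.5 CPM in the Rpl22-/- libraries and at 529, 562 and 523 CPM in the Rpl22+/+ libraries, in accord with the labels. All 12 HSC markers listed, such as Procr and Hlf, were high enough to be tested. Of the 14004 genes tested, 780 differed at an adjusted p below 0.05 in edgeR's quasi-likelihood test, which is 5.57% (321 lower and 459 higher in Rpl22-/- HSCs, or 2.29% and 3.28%). With library size alone as the scaling, 43.4% of the calls were higher rather than 58.8%. The CPM values of the genotypes did not overlap for 26.9% of the genes tested.

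Among the 7 lymphoid priming genes tested, only Satb1 differed between the genotypes, and it was lower in Rpl22-/- HSCs. The share of all genes called was 5.57%, as given above. An unadjusted p below 0.05 was reached by 2 of the 7 (Satb1 and Cd79b), against 22.3% of all genes, and the genotypes did not overlap for the same 2 genes, against 26.9%. The log2 fold change was below 0 for 6 of the 7 and above 0 for 1. Its median was -0.10, beside -0.0068 over all genes tested. Summed over the 10 genes, the level was 443 to 515 CPM in the Rpl22-/- libraries and 489 to 512 CPM in the Rpl22+/+ libraries, so the ranges overlapped. Ikzf1 and Sox4, with means of 208 and 195 CPM in Rpl22-/- HSCs, made up most of this sum. It therefore says little about Satb1 and the low genes.

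**Figure D1:**
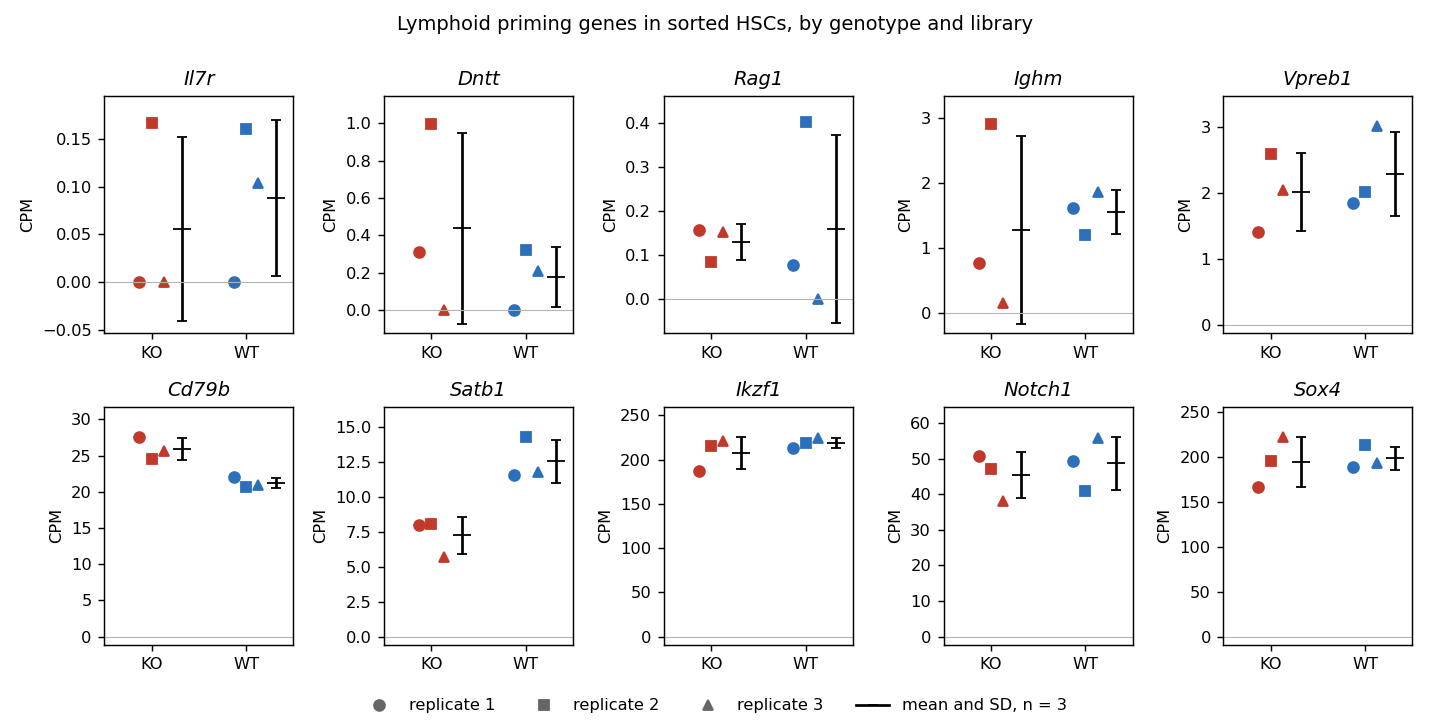
CPM of each lymphoid priming gene in the 3 Rpl22-/- (KO, red) and 3 Rpl22+/+ (WT, blue) libraries, each gene on its own axis, with the mean and SD of a genotype as a bar. Satb1 lies between 5.70 and 8.07 CPM in Rpl22-/- and between 11.5 and 14.3 CPM in Rpl22+/+ HSCs, and Il7r and Rag1 hold 5 reads or fewer in every library.

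Satb1 encodes a chromatin organizer that anchors looped DNA and is known for roles in lymphoid priming and T cell development. It lies on the minus strand of chr17:51736187-51833290 (GRCm38) and is protein-coding. RefSeq (GRCm38.p6) lists 5 transcription starts for it, and a count per gene cannot separate the transcripts that begin at each. Exons of Satb1 also overlap Gm36931 on the same strand and Gm6934 on the opposite strand. Neither is among the genes counted, so reads from them cannot be told apart from those of Satb1. The 100 bases upstream of the 2 most upstream starts are shown because Satb1 is the gene called. They are written 5′ to 3′ on the minus strand and without capitals since no motif was searched. The first window is chr17:51833291-51833390 and the second chr17:51832648-51832747.
Satb1 start 1: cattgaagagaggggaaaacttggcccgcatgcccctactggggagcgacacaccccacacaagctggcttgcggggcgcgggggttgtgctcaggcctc
Satb1 start 2: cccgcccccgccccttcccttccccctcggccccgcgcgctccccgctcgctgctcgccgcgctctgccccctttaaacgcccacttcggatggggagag
The windows around these starts, from 250 bases before to 50 after, were 59% and 76.7% G or C, and those of the other 3 starts 56%, 53.3% and 49%.

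Satb1 had 102, 97 and 75 reads in Rpl22-/- replicates 1 to 3 and 150, 178 and 113 reads in Rpl22+/+ replicates 1 to 3. In CPM these were 7.95, 8.07 and 5.70 against 11.5, 14.3 and 11.8. Every Rpl22-/- library was below every Rpl22+/+ library, and the lowest was Rpl22-/- replicate 3. The means were 7.24 ± 1.34 and 12.5 ± 1.53 CPM (SD, n = 3 each). Satb1 fell by 0.79 on the log2 scale (SE 0.186, adjusted p = 0.0237), and it ranked 372 by p among all genes tested. The call was lost when any of 4 libraries was left out, with a value of -0.64 on the log2 scale (adjusted p = 0.103) without Rpl22-/- replicate 3, and with adjusted p-values of 0.0618, 0.114 and 0.0638 without Rpl22+/+ replicates 1, 2 and 3. It was also lost when the trend of each library on gene length was removed (-0.69, adjusted p = 0.0536).

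**Figure D2:**
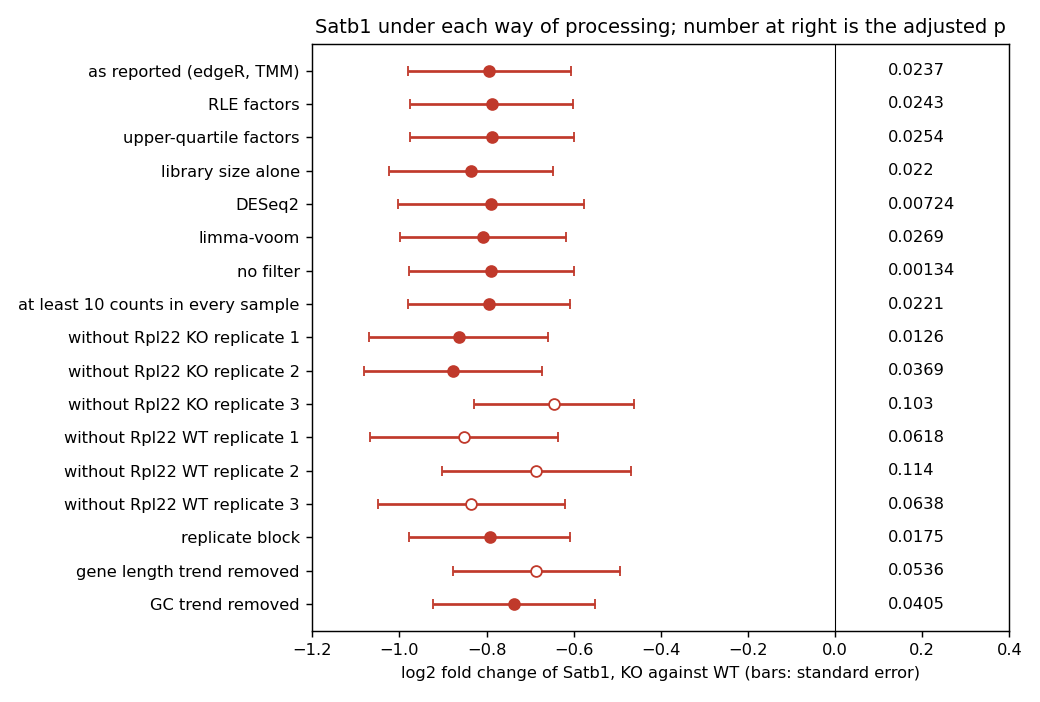
Log2 fold change of Satb1 (Rpl22-/- over Rpl22+/+) under the reported analysis and 16 alternatives, each with its standard error as a bar and its adjusted p at the right, and with open circles for an adjusted p of 0.05 or more. Every value lies below 0, between -0.88 and -0.64, and 11 of the 16 alternatives keep an adjusted p below 0.05.

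Ikzf1 encodes Ikaros, a zinc finger factor required for lymphoid development (chr11:11685003-11772926, plus strand). Its levels were 187, 215 and 221 CPM in Rpl22-/- and 213, 219 and 225 CPM in Rpl22+/+ HSCs. Apart from Rpl22-/- replicate 1, the libraries lay within a narrow and overlapping range. The log2 fold change was -0.074 (SE 0.0873, adjusted p = 0.671), with means of 208 ± 18.0 and 219 ± 5.87 CPM. Sox4, an HMG box factor used in early B and T cell differentiation (chr13:28948919-28953713, minus strand), had 167, 196 and 222 CPM in Rpl22-/- and 189, 214 and 193 CPM in Rpl22+/+ HSCs. The Rpl22-/- libraries enclosed the Rpl22+/+ libraries, and the log2 fold change was -0.028 (SE 0.102, adjusted p = 0.907). An exon of Sox4 overlaps Gm26735 on the opposite strand, which is not among the genes counted.

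Notch1, the receptor of the T lineage decision (chr2:26457903-26516663, minus strand), was measured at 50.8, 47.1 and 38.1 CPM in Rpl22-/- and 49.3, 40.9 and 55.9 CPM in Rpl22+/+ HSCs. The ranges overlapped, and the log2 fold change was -0.10 (SE 0.128, adjusted p = 0.697). An exon of Notch1 overlaps 2 genes of the opposite strand, of which 0610009E02Rik had 70 to 106 reads and Gm13568 4 to 19. Because the strand setting of the counting is not given in the sources used here, reads from such overlaps cannot be told apart.

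Il7r, the receptor chain for interleukin 7 that marks common lymphoid progenitors (chr15:9505788-9530176, minus strand), had 0, 2 and 0 reads in Rpl22-/- and 0, 2 and 1 reads in Rpl22+/+ libraries. The sums of 2 and 3 reads gave a ratio of 0.615 with a 95% counting interval of 0.0514 to 5.37, so a change in either direction was not detectable at this depth. Counting intervals here cover counting error only. Rag1, a subunit of the V(D)J recombinase (chr2:101638282-101649501, minus strand), had 2, 1 and 2 reads against 1, 5 and 0 reads. Its ratio was 0.769 (0.186 to 3.03). An exon of Rag1 also overlaps B230118H07Rik on the same strand, which had 210 to 325 reads.

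Dntt encodes terminal transferase, the enzyme that adds bases at V(D)J junctions (chr19:41029275-41059525, plus strand). It had 4, 12 and 0 reads in Rpl22-/- replicates 1 to 3 and 0, 4 and 2 reads in Rpl22+/+ replicates 1 to 3. Rpl22-/- replicate 2 held 12 of the 16 Rpl22-/- reads, while the ranges of the genotypes overlapped. The ratio of 16 to 6 reads after scaling for depth was 2.46 with an interval of 0.915 to 7.68, which includes no difference. With the filter on low counts removed, edgeR gave Dntt a log2 fold change of 1.27 (SE 1.06, adjusted p = 0.597).

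Vpreb1 encodes a part of the surrogate light chain (chr16:16868403-16870843, minus strand). Mice carry a near copy of it, Vpreb2 (chr16:17980428-17981273, plus strand), and a read that fits both equally could not have been assigned uniquely. The coding sequences in the GENCODE transcripts are 429 bases long each, differ at 9 positions and are 97.9% identical, and their longest identical run is 196 bases. Bases 268 to 387 of each coding sequence are shown because 6 of the 9 differences fall there, in capitals, so a read that covers any of these positions can separate the copies, while one that lies between them cannot.
Vpreb1: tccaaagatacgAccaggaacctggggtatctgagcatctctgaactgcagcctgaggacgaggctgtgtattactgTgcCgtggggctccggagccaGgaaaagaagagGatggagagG
Vpreb2: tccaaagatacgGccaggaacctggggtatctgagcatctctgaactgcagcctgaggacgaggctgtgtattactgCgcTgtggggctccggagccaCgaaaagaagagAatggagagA
Vpreb1 was counted at 18, 31 and 27 reads in Rpl22-/- and 24, 25 and 29 reads in Rpl22+/+ libraries, and Vpreb2 at 0, 2 and 0 reads against 0 reads in each. In CPM, Vpreb1 had 1.40, 2.58 and 2.05 against 1.84, 2.01 and 3.02, and the ranges overlapped. The log2 fold change was -0.17 (SE 0.359, adjusted p = 0.824). An exon of Vpreb1 overlaps Top3b on the opposite strand, a gene with 981 to 1333 reads per library, so the Vpreb1 value is uncertain on this account too. Igll1, which encodes the other surrogate light chain protein, had 0 reads in all 6 libraries.

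Cd79b, a signalling chain of the pre-B and B cell receptors (chr11:106311341-106314762, minus strand), had 27.6, 24.6 and 25.7 CPM in Rpl22-/- and 22.0, 20.7 and 20.9 CPM in Rpl22+/+ HSCs. Every Rpl22-/- library was above every Rpl22+/+ library, which held in this direction for 13.3% of all genes tested. The means were 25.9 ± 1.54 and 21.2 ± 0.721 CPM, and the log2 fold change of 0.29 (SE 0.120) had an unadjusted p of 0.0283 and did not pass after adjustment (adjusted p = 0.166). Its partner chain Cd79a was close to absent, with 5, 0 and 2 reads in Rpl22-/- and 2, 3 and 2 reads in Rpl22+/+ libraries.

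Ighm encodes the constant region of the mu heavy chain (chr12:113418558-113422730, minus strand). It had 10, 35 and 2 reads in Rpl22-/- replicates 1 to 3 and 21, 15 and 18 reads in Rpl22+/+ replicates 1 to 3. The highest and the lowest library were both Rpl22-/-, and in CPM the means were 1.28 ± 1.45 and 1.56 ± 0.337. The log2 fold change was -0.30 with an SE of 0.620 (adjusted p = 0.821). It rested on single libraries, being -1.72 without Rpl22-/- replicate 2 (adjusted p = 0.152) and 0.24 without Rpl22-/- replicate 3.

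**Figure D3:**
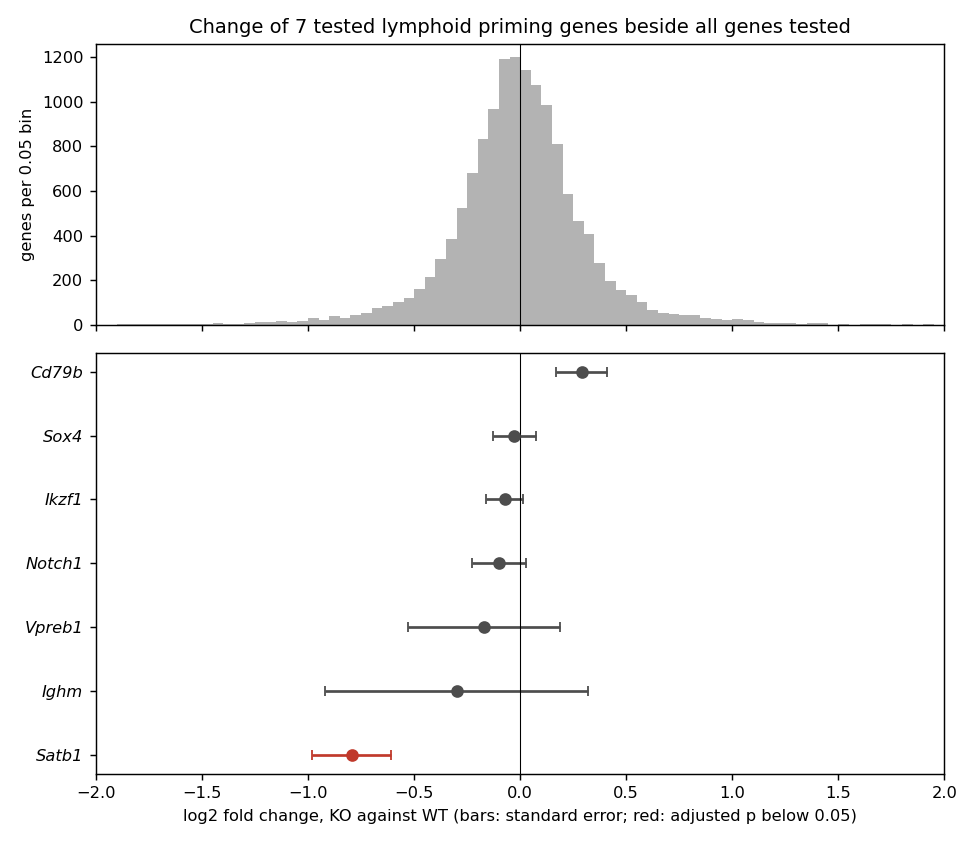
Log2 fold change (Rpl22-/- over Rpl22+/+) with its standard error for the 7 lymphoid priming genes tested, below a histogram of the log2 fold changes of all genes tested, from which 35 genes beyond ±2 are left out. Satb1 at -0.79 is the only one of the 7 with an adjusted p below 0.05, and Cd79b at 0.29 is the only value above 0.

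The levels of the 10 genes spanned more than the genotypes did. In CPM per kilobase of exon, averaged over the 6 libraries, Sox4 (41.0, range 34.8 to 46.3) and Ikzf1 (36.9, range 32.4 to 38.9) were the highest, and their ranges overlapped. Cd79b followed at 16.5 (14.5 to 19.3) and Notch1 at 3.30 (2.68 to 3.93), each separate from its neighbours. Vpreb1 stood at 1.79 (1.17 to 2.52), Ighm at 0.754 (0.0806 to 1.54) and Satb1 at 0.519 (0.299 to 0.751), and the ranges of neighbours overlapped here. Dntt at 0.134, Rag1 at 0.0219 and Il7r at 0.0154 were the lowest, with ranges that reached 0. The order depends on the length used: with the longest coding transcript, which for Satb1 is 6243 bases against 19027 bases for all its exons, Satb1 had 1.58 and Ikzf1, at 41.3, stood above Sox4.

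Other genes of early lymphoid development were compared in the same fit. Of 32 other lymphoid transcription factors, 21 were tested, 1 was called higher and 1 lower, beside 3.28% and 2.29% of all genes. The median over those tested was 0.13 on the log2 scale. Ikzf2, which encodes the Ikaros family factor Helios, fell to 66.6 ± 8.20 from 93.2 ± 8.16 CPM (log2 fold change -0.48, adjusted p = 0.0153). Its call was lost without Rpl22-/- replicate 3 or Rpl22+/+ replicate 3 and with a GC trend removed. Sox12, a relative of Sox4, rose to 47.6 ± 5.18 from 36.5 ± 2.0 CPM (0.38, adjusted p = 0.0484), a call lost in 8 of 16 alternatives. Tcf3, which encodes E proteins, stood at 0.28 (adjusted p = 0.0616).

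Surface and signalling genes of lymphoid-primed and common lymphoid progenitors made up the next list. Of 18 listed, 14 were tested and 3 were higher in Rpl22-/- HSCs, beside 3.28% of all genes, and 0 were lower; the median log2 fold change was 0.10. Crlf2, the receptor chain for the cytokine TSLP, rose to 57.0 ± 1.27 from 42.2 ± 2.39 CPM (0.43, adjusted p = 0.0160), a call lost without Rpl22-/- replicate 3, Rpl22+/+ replicate 1 or Rpl22+/+ replicate 2 and with a GC trend removed. Cd52, a surface glycoprotein of lymphocytes, rose to 8.46 ± 3.09 from 3.57 ± 0.987 CPM (1.22, adjusted p = 0.0234), and had 0.94 with an adjusted p of 0.0998 without Rpl22-/- replicate 2. Its call was also lost without Rpl22-/- replicate 3, Rpl22+/+ replicate 1 or Rpl22+/+ replicate 3. Cxcr4, the receptor for CXCL12, was the third (0.37, adjusted p = 0.0427) and was called in 8 of 16 alternatives, and in none that left out a library. Flt3, the cytokine receptor of multipotent and lymphoid-primed progenitors, did not overlap between the groups, at 39.1 ± 3.38 against 50.3 ± 5.81 CPM, but did not pass (log2 fold change -0.36, adjusted p = 0.0675).

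Of 13 other genes of V(D)J recombination, 12 were tested and 1 was called, beside 5.57% of all genes. Hmgb1, a DNA-bending protein that assists the recombinase and is abundant in most cells, rose to 1128 ± 178 from 835 ± 50.4 CPM (0.43, adjusted p = 0.0370), and lost the call when any library but Rpl22-/- replicate 1 was left out. The DNA damage kinase genes Atm and Prkdc had log2 fold changes of -0.27 and -0.15 (adjusted p = 0.0723 and 0.284). Rag2 had at most 2 reads in a library. Of 13 other genes of the pre-B and B cell receptors, 6 were tested and 1 was called lower, beside 2.29% of all genes. Pik3cd, a catalytic subunit of PI3 kinase used in many blood cells, fell to 137 ± 3.89 from 183 ± 15.1 CPM (-0.41, adjusted p = 0.0143), while Syk and Plcg2 had log2 fold changes of 0.13 and 0.070 (adjusted p = 0.366 and 0.665). The call for Pik3cd was lost without Rpl22-/- replicate 3, Rpl22+/+ replicate 1 or Rpl22+/+ replicate 3.

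Among 34 other Notch pathway genes, 30 were tested and 0 were called by edgeR. An unadjusted p below 0.05 in edgeR was reached by 6 of the 30, beside 22.3% of all genes tested. DESeq2 called 1 and limma-voom 0. The median log2 fold change was -0.011. The smallest p-values belonged to Nrarp, a feedback inhibitor and Notch target, at 0.45 (adjusted p = 0.0685), to Spen, a corepressor partner, at 0.29 (adjusted p = 0.0699), and to Pofut1, which fucosylates Notch receptors, at -0.26 (adjusted p = 0.0905).

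**Figure D4:**
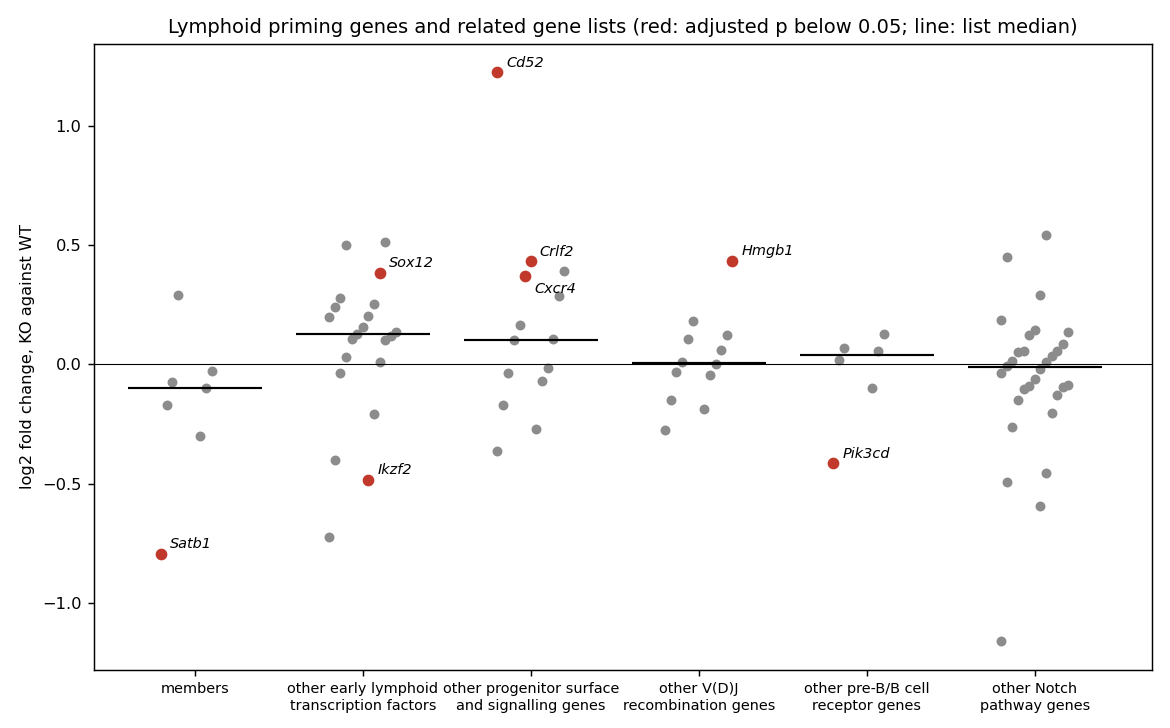
Log2 fold change (Rpl22-/- over Rpl22+/+) of each tested gene of the lymphoid priming genes (members) and 5 related lists, with red points for an adjusted p below 0.05 and a line at each list's median. Cd52 stands highest among the progenitor genes at 1.22, and no Notch pathway gene is red.

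Markers of other cell types were read beside the low genes. Of all genes tested, 22.3% had an unadjusted p below 0.05 in edgeR and 5.57% were called. The B lineage factor genes Pax5 and Ebf1 had at most 2 reads per library and Ms4a1 had 0 in all 6 libraries. Other B cell markers that are also used outside the B lineage were expressed, with Cd37 at 96.1 to 132 CPM and Cd74 at 16.2 to 44.2 CPM. Cd48, which the sort excluded, had 4.89 to 7.30 CPM. Of 16 T and NK cell genes, 6 were tested and 0 were called by edgeR, DESeq2 or limma-voom (1 had an unadjusted p below 0.05 in edgeR), and Cd3e and Trac had 0 reads everywhere. The smallest p-values were those of Nkg7, Cd247 and Lck, at 0.35, -0.28 and 0.34 on the log2 scale. Of 10 mature B cell markers found, 5 were tested, 3 had an unadjusted p below 0.05 and 0 were called by any of these tools (Cd37 0.28, Cd74 0.59, Cr2 -0.83). Of 10 plasma cell markers, 5 were tested, 1 had an unadjusted p below 0.05 and 0 were called by any of them (Xbp1 -0.35, Prdm1 -0.62, Sdc1 -0.24). Of 8 erythroid markers found, 4 were tested, 1 had an unadjusted p below 0.05 and 0 were called by any of them (Hbb-b2 0.78, Epor 0.24, Hbb-b1 0.32). Of 9 plasmacytoid dendritic cell markers, 3 were tested and 1 was called, Bst2, an interferon-inducible surface protein (0.46, adjusted p = 0.0115), a call lost without Rpl22-/- replicate 3 or Rpl22+/+ replicate 1. Irf8 and Tcf4 of that list stood at 0.50 and -0.036 without a call. Of the 12 HSC markers, 5 had an unadjusted p below 0.05 in edgeR, beside 22.3% of all genes tested. Gata2 rose (0.39, adjusted p = 0.0190) and Fgd5 fell by 0.41 on the log2 scale (adjusted p = 0.0308). Slamf1, which encodes CD150, had 0.30 without a call (adjusted p = 0.154). The calls of Gata2 and Fgd5 were both lost without Rpl22-/- replicate 3 or any Rpl22+/+ library. That of Fgd5 was also lost without Rpl22-/- replicate 2, and that of Gata2 also with a GC trend removed. Of 3 markers of progenitors outside the gate, all were tested, 1 had an unadjusted p below 0.05 and 0 were called by any of these tools (Flt3 -0.36, Cd34 -0.11, Cd48 0.19). Fewer cells of a type and less RNA per cell cannot be told apart in such bulk libraries.

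Rpl22+/+ replicate 3 held RNA of some immunoglobulin genes that the other libraries nearly lacked. Heavy-chain variable genes were not among these, with 11 reads in Rpl22+/+ replicate 3 and 4 to 19 in the other libraries. The constant-region genes other than Ighm summed to 59.8 CPM in Rpl22+/+ replicate 3 and to at most 0.307 CPM elsewhere, led by Ighg2b with 388 and Igkc with 186 reads. Igj, the joining chain gene of plasma cells, had 61 reads against 2 to 9 elsewhere. The summed plasma cell markers, which include Igj, did not follow Ighg2b and Igkc. They stood at 116 CPM in Rpl22+/+ replicate 3, against 156 and 139 CPM in Rpl22+/+ replicates 1 and 2. Xbp1 alone gave 132, 117 and 92.3 CPM in Rpl22+/+ replicates 1, 2 and 3. The sums therefore mainly show Xbp1 and say little about the lower markers. Sdc1 was lowest in Rpl22+/+ replicate 3, at 4.89 CPM. Ighm was not highest in that library, with 18 reads. Rpl22-/- replicate 2, which had the most Ighm and Dntt reads, also had the most reads of the myeloid granule gene Mpo, 1218 against 19 to 225. Neutrophil markers summed to 225 CPM in it and to 66.9 to 108 CPM in the other libraries. Of the 9 neutrophil markers, all were tested and 2 rose, beside 3.28% of all genes. These were Ctsg (2.85, adjusted p = 0.0282) and Camp (2.43, adjusted p = 0.0291). An unadjusted p below 0.05 was reached by 6 of the 9, beside 22.3% of all genes. The log2 fold change was above 0 for 8 of the 9, and the median was 1.63. The highest library was Rpl22-/- replicate 2 for Mpo, Elane and Ctsg and Rpl22-/- replicate 3 for Camp, Ngp and Ltf. Both calls were lost without Rpl22-/- replicate 2, without Rpl22-/- replicate 3 and without Rpl22+/+ replicate 2, that of Ctsg also without Rpl22+/+ replicate 1 and that of Camp also without Rpl22+/+ replicate 3. Neither was called by limma-voom (adjusted p = 0.0616 for Ctsg and 0.0557 for Camp), and Ctsg was not called by DESeq2 (adjusted p = 0.161). Over the 16 alternatives 0 to 6 neutrophil markers were called. Mpo, at 2.32, did not pass (adjusted p = 0.0642). Whether other cell types contributed to the values of Ighm and Dntt was not tested. Without Rpl22+/+ replicate 3, Satb1 stood at -0.83 on the log2 scale (adjusted p = 0.0638), and without Rpl22-/- replicate 2 it had -0.88 (adjusted p = 0.0369).

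**Figure D5:**
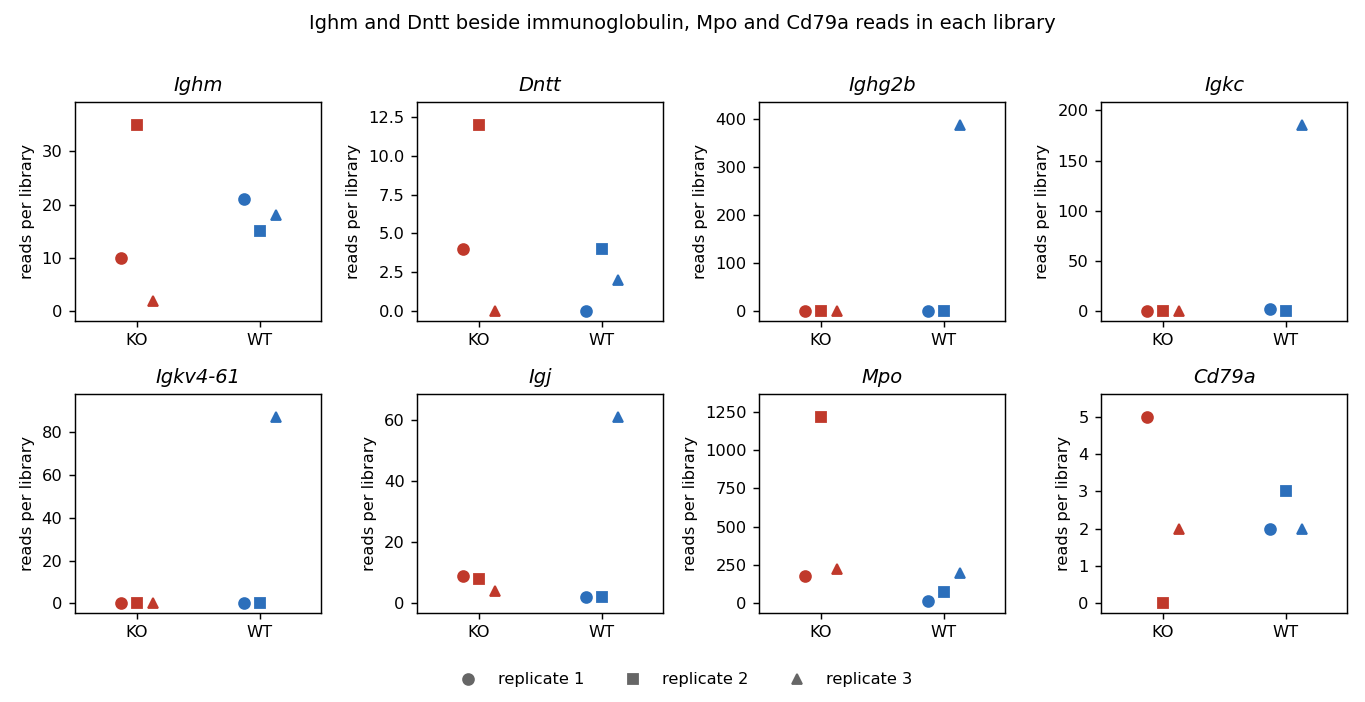
Reads per library of Ighm and Dntt beside immunoglobulin genes (Ighg2b, Igkc, Igkv4-61), the plasma cell gene Igj, the myeloid gene Mpo and the B lineage gene Cd79a, in Rpl22-/- (KO, red) and Rpl22+/+ (WT, blue) libraries with a symbol for each replicate. Rpl22+/+ replicate 3 stands apart for the immunoglobulin genes and Igj, with 388 reads of Ighg2b, and Rpl22-/- replicate 2 for Mpo, with 1218 reads.

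The genes whose log2 CPM followed Satb1 most closely over the 6 libraries were Postn (Pearson r = 0.997), Shpk (0.996), Paqr5 (0.995), Gm13610 (0.995) and BC018507 (0.986). None of the 5 was called, with adjusted p-values from 0.0588 to 0.227. Postn had only 2 to 17 reads per library, so its correlation rests on low counts. For Ighm the closest genes were Bex6 (0.978), Pam16 (0.978), Mrpl45 (0.977), Prdm4 (0.976) and A730015C16Rik (0.974). These correlations are descriptions over libraries that share the genotype difference, and the genes were picked as the highest of all genes tested.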

How the data were processed

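RNA from sorted HSCs was made into libraries with a TruSeq RNA kit. Per the study's methods, FastQC was used for quality control and TopHat2 2.1.1 for alignment to mm10, and the authors deposited whole-number HTSeq counts per gene, without normalization. The strand setting and annotation are not given in the sources used here. HTSeq's totals of reads not on genes (58.6% to 60.9% of each library) were left out.

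Symbols were matched to GENCODE vM21 (GRCm38): 29093 directly and 1836 through older symbols, 30929 in all, with 3644 unmatched. Low genes were removed in R 4.3.3 by edgeR 4.0.16 (filterByExpr, at least 10 counts), which left 14004. TMM scaling, the quasi-likelihood test and Benjamini-Hochberg adjustment over all genes tested were used, with a threshold of 0.05. The study's own testing used DESeq2, which was run here as an alternative (1.42.0), as was limma-voom (3.58.1). SEs were derived from the F statistic and the fold change. Trends on length and GC were fitted for each library, as its log2 ratio to the mean library, with a lowess span of 0.3. The script was tested on simulated data.

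The members and the 14 other lists were chosen with earlier results of these data known, so no list is independent evidence. Named were all 10 members, Rpl22, the 3 tested genes with the smallest p in each other list, the 5 genes most like Satb1 and Ighm, and near-identical copies. Some listed genes are not reported here, and the counts leave them out. Marker genes with counts near 0 or high in 1 library were added after their values were seen, and older symbols (such as Igj) were looked up in the opened table. No pair of libraries within a genotype agreed within sampling noise, and 0 sample columns were left unused.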

Additional observations from a re-analysis of the deposited data

How the results depend on the processing

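Under 16 alternatives the 780 genes called became 1422 with no filter on low counts and 509 with a GC trend removed, and 127 to 1720 when 1 library was left out (127 without Rpl22-/- replicate 3, 1720 without Rpl22-/- replicate 1, and 370, 206, 259 and 241 without Rpl22-/- replicate 2 and Rpl22+/+ replicates 1, 2 and 3); the cause was not tested. Of the lymphoid priming genes, 1 was called throughout, except 0 with a length trend removed and 0 to 1 with a library left out. Over the alternatives the other lists held 0 to 4 calls for transcription factors (2 reported), 0 to 6 for progenitor genes (3), 0 to 2 for V(D)J genes (1), 0 to 1 for receptor genes (1) and 0 to 3 for Notch pathway genes (0). Satb1 stayed below 0 in all 16, and Cd79b above 0. With a library left out, small fold changes crossed 0: Ikzf1 -0.12 to 0.00017, Sox4 -0.13 to 0.078, Vpreb1 -0.38 to 0.060, Ighm -1.72 to 0.24 and Notch1 -0.21 to 0.012. Tcf4, a dendritic cell marker at -0.036, became 0.087 and 0.088 with a length and a GC trend removed. A fit with the replicate block gave 904 genes, with Satb1 at -0.79 (adjusted p = 0.0175). Deviations of samples with the same number correlated little (r from -0.10 to 0.055), and not every sample correlated best with its own. Deviations within 3 libraries are too few to decide whether same-numbered samples share a batch, and the labels give only the number. Il7r, Rag1 and Dntt, with at most 12 reads in a library, are limited by depth.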
